A study of Mus musculus with 6 samples.

Results

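The genes described here are 10 factors that hold retrotransposons silent: *Trim28* and *Setdb1*, the HUSH complex genes *Mphosph8*, *Tasor* and *Pphln1*, the MORC ATPase genes *Morc2a* and *Morc3*, the remodeler gene *Hells*, and the histone chaperone pair *Atrx* and *Daxx*. They were chosen by name for this role, with earlier results of these data known, and all 10 were found among the 35565 genes listed. The libraries are bulk RNA-seq of mouse gastruloids, aggregates of embryonic stem cells (ESCs) that form an elongated body axis in culture, collected at day 5 of gastruloid formation. There were 3 libraries of Control (NT) gastruloids, from non-targeting ESCs that the sample labels call WT, and 3 of *T-UCstem1* KD-1 gastruloids, from ESCs in which the long non-coding RNA *T-UCstem1* was knocked down. Both ESC lines came from TBV2 129/SvP cells, both were given a pulse of the GSK3 inhibitor CHIR99021, and KD-1 is 1 clone, so a difference between clones cannot be told apart from the knockdown. The labels do not say whether the 3 libraries of a group came from separate cultures, so the p-values measure the spread between libraries, which may be technical. *T-UCstem1* itself was not analysed here, and neither were the transcripts of retrotransposons.

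Retrotransposons are mobile sequences that copy themselves through RNA, and ESCs hold most of them silent with repressive chromatin. KRAB zinc finger proteins bind their DNA and recruit TRIM28, a corepressor that brings in SETDB1, the enzyme that trimethylates histone H3 at lysine 9 (H3K9). The HUSH complex spreads this mark over transcribed, intron-poor insertions such as young LINE elements: TASOR is its scaffold, MPP8 (encoded by *Mphosph8*) reads methylated H3K9, and periphilin (encoded by *Pphln1*) binds RNA. MORC proteins compact chromatin, HELLS opens nucleosomes to DNA methylation, and ATRX with DAXX places the histone variant H3.3 at repeats.

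The Control (NT) libraries held 20982249 to 56674906 counts and the KD-1 libraries 41180012 to 85561026, and libraries are named by their depth within a group. Levels are counts scaled to the library size (CPM) after TMM normalization, and errors are SDs over the 3 libraries of a group. A count of 3, taken as the limit of detection, was 0.143 CPM in the shallowest library and 0.0351 in the deepest, counting error only. The Control (NT) library of middle depth stood apart from the other 2 of its group, with a chi-square per degree of freedom of 35.5 and 34.4 against them, where the other Control (NT) pair gave 15.4 and the KD-1 pairs 4.76 to 11.2. It was the lowest of its group in 6 of the 10 silencing genes. Markers of cell types differed between the groups as well. The 8 pluripotency markers summed to between 791.2 and 872.5 CPM in Control (NT) and between 2541 and 2634 in KD-1, and all 8 were called higher. The 10 mesoderm markers summed to between 583.5 and 676.1 CPM in Control (NT) and between 62.8 and 64.55 in KD-1, with 8 of 9 tested called lower. Most of the Control (NT) sum was *Meox1*, at 371 ± 16.7 CPM against 0.423 ± 0.0313 in KD-1 (SD, n = 3). Most of the KD-1 sum was *Pax3*, at 42.2 ± 0.273 CPM there and 89.65 ± 3.55 in Control (NT). The tested gene not called was *T* (log2 fold change of KD-1 over Control (NT) -0.31, adjusted p = 0.17, edgeR). Of the 6 neural markers, 4 were tested and 3 were called higher, with a sum of 34.22 to 38.01 CPM in Control (NT) and 131.9 to 133.9 in KD-1. Of the 6 endoderm markers, 3 were tested and 2 were called lower, and they summed to 6.222 to 7.13 CPM and 3.977 to 4.556 CPM. Much of this sum was *Cldn6*, at 3.45 ± 0.432 and 3.69 ± 0.317 CPM (SD, n = 3, adjusted p = 0.65, edgeR). The others were near the floor, so the sum does not measure endoderm. In the paper's single-cell data, the population labelled anterior primitive streak or definitive endoderm was more represented in KD-1. The 7 feeder fibroblast markers summed to 8.344 to 9.151 CPM in Control (NT) and 0.8175 to 1.002 in KD-1, with 3 of 4 tested called lower. Those 3 passed the filter on low counts, which set the genes tested, only through Control (NT), so a call could only be lower. *Thy1*, the other gene tested, passed it only through KD-1. Some called genes of the mesoderm and endoderm lists also passed it only through Control (NT). Of the 7, *Postn* and *Lum* were at 0 in KD-1. *Thy1* had 3, 0 and 14 counts in the Control (NT) libraries of lowest, middle and highest depth. It had 22, 22 and 28 in KD-1 (adjusted p = 0.083, edgeR). The 7 genes, *Thy1* among them, are not particular to feeder cells, and the source of their transcripts was not tested. In bulk RNA, fewer cells of a type and less RNA per cell cannot be told apart, and the part of cell type makeup in the results below was not tested.

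The sequences around the start sites are shown for the genes that were called higher, *Tasor*, *Morc3* and *Hells*, and for *Mphosph8*, a HUSH gene that was not. Each runs from 250 bases before to 50 bases after the start, on the gene's own strand, from RefSeq on GRCm38.p6: *Tasor* at chr14:27428584-27428883 (plus strand), *Morc3* at chr16:93831871-93832170 (plus), *Hells* at chr19:38930740-38931039 (plus) and *Mphosph8* at chr14:56667998-56668297 (plus). Capitals mark exact letters of the motifs searched on both strands.
Tasor: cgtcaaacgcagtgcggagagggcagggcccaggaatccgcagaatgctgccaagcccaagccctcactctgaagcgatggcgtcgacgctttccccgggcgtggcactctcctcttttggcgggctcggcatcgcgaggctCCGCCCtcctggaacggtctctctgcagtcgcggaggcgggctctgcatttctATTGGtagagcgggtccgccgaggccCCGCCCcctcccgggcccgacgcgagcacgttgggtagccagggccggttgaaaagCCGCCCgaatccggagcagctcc
Morc3: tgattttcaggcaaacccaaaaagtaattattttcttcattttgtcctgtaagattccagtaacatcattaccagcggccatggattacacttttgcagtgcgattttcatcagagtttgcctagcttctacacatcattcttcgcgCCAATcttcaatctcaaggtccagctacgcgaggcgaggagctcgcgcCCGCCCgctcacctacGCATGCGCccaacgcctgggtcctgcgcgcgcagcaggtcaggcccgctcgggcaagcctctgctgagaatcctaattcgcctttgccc
Hells: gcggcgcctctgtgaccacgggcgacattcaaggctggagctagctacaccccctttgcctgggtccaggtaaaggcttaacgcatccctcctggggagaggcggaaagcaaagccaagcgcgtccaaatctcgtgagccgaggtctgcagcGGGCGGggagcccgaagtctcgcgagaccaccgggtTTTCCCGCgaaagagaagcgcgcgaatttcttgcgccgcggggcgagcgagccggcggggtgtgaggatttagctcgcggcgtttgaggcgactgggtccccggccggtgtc
Mphosph8: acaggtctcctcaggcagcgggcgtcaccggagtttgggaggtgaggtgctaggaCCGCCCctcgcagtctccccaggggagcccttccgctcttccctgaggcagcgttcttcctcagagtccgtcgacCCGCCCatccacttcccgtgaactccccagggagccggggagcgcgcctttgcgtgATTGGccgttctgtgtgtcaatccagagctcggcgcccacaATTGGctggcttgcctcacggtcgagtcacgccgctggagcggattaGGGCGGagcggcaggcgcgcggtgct
The letters searched were TTTGGCGC and TTTCCCGC for E2F, GCATGCGC for NRF1, CCGGAAG for ETS factors, CCAAT for the CCAAT box, GGGCGG for the GC box, TGACGTCA for CRE, AAGATGGCG for YY1, ATGCAAAT for the octamer and CACGTG for the E-box, and none of these strings lies inside another. The *Hells* window held TTTCCCGC, which is in 1.07% of the 32851 windows of this length, and it was the only one of the 10 genes to do so. GCATGCGC was in the windows of *Morc3* and *Pphln1* and in 2.71% of all windows. GC boxes were in the windows of 8 of the 10 genes, against 35.7% of all windows, and CCAAT was in 7 of the 10, against 37.4%. These measures are unlike: a gene was counted if any of its windows held the letters, whereas the percentages are over single windows. *Daxx*, *Morc2a* and *Pphln1* had more than a single window. The called genes shared no motif that the genes not called lacked: *Tasor* held GC boxes and CCAAT, as did *Mphosph8*. The windows shown were richer in CpG than most, with 32 CpG in *Tasor*, 20 in *Morc3*, 34 in *Hells* and 28 in *Mphosph8*, where the median window had 7. A match is a string of letters and not a binding site, and no binding was measured.

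Of the 10 silencing genes, 3 were called higher in KD-1 gastruloids and 0 lower, where a call needed an adjusted p under 0.05 from edgeR's quasi-likelihood test and a fold change over 1.5 or under 0.667. Across the 15110 genes tested the calls came to 37.7%, with 19.7% higher and 18.1% lower, so that the share called among the silencing genes was near that of the transcriptome. By adjusted p alone, 4 of the 10 passed, all higher, and 6 did not pass, beside 63.5% of all genes (30.9% higher and 32.6% lower). The groups did not overlap in 7 of the 10 genes, beside 70.6% of all genes. The same 3 genes were called with any 1 library left out, the middle-depth Control (NT) library included. The median log2 fold change of KD-1 over Control (NT), called log2 change below, was 0.15 over the 10 genes, with a range from -0.13 to 1.41, and -0.015 over all genes tested. The 10 transcripts together came to between 1603 and 1831 CPM in Control (NT) and between 2074 and 2161 in KD-1. This sum is weighted to abundant transcripts and is no measure of the 10 genes alike. Most of its rise lay in *Hells* (mean 194.5 to 349 CPM) and *Atrx* (415.8 to 554.5), while *Trim28* went from 585 to 535.

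**Figure D1:**
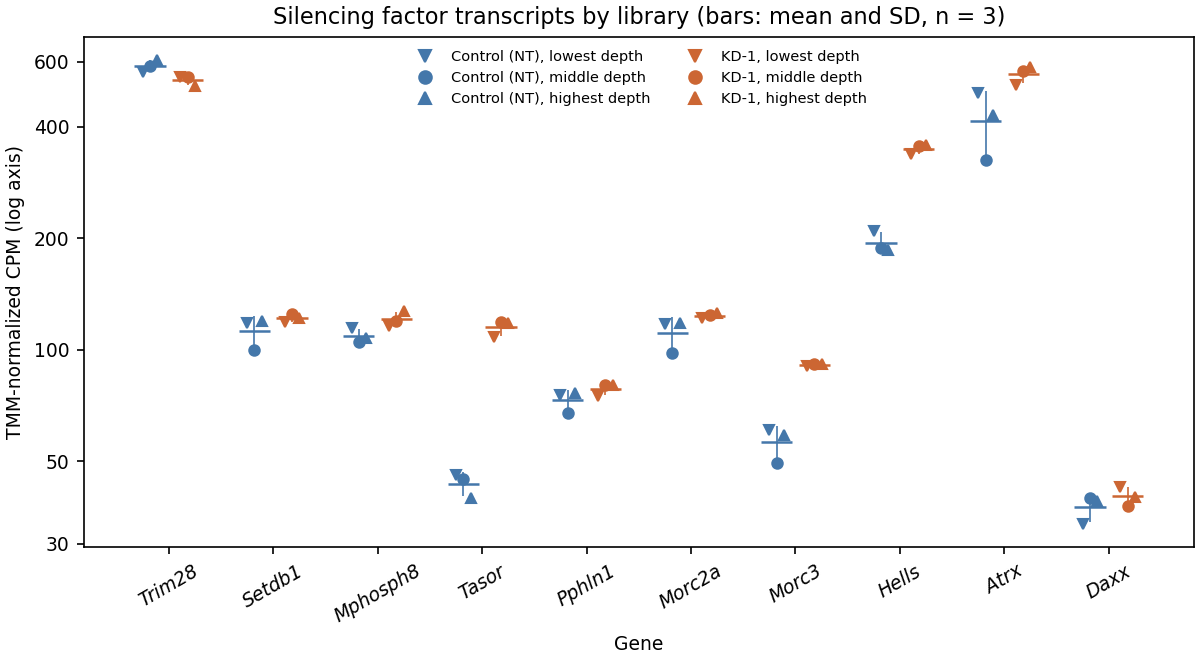
TMM-normalized CPM (log axis) of the 10 silencing genes, with 1 point per library and bars for the mean and SD of the 3 libraries of each group. *Tasor*, *Morc3* and *Hells* have KD-1 points well above all Control (NT) points, whereas the groups overlap in *Setdb1*, *Pphln1* and *Daxx*.

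*Trim28* (ENSMUSG00000005566, chromosome 7, 12733041 to 12764976, plus strand, GRCm39 as for all gene positions below) had the highest level per kb of the 10 transcripts in both groups. It had 563, 585 and 606 CPM in the Control (NT) libraries of lowest, middle and highest depth and 545, 545 and 515 in those of KD-1. All KD-1 libraries lay below all Control (NT) libraries, but by little: the means were 585 ± 21.4 (SD, n = 3) and 535 ± 17.4 (SD, n = 3), and the log2 change was -0.13 (standard error, SE, 0.056). This did not pass the threshold (adjusted p = 0.074, edgeR). *Trim28* did pass it without the Control (NT) library of lowest depth (log2 change -0.16, adjusted p = 0.032) and with that of middle depth left out (-0.13, adjusted p = 0.045, edgeR).

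*Setdb1*, which encodes the H3K9 methyltransferase that TRIM28 recruits (ENSMUSG00000015697, chromosome 3, 95229399 to 95264541, minus strand), had 118, 99.85 and 119.8 CPM in Control (NT) against 119, 125 and 122 in KD-1. The groups overlapped, and the 95% interval of the log2 change ran from -0.061 to 0.29 around 0.11 (adjusted p = 0.22, edgeR). Its 3′ part shares 1309 exon bases with *Cers2* on the opposite strand, a ceramide synthase gene that was called lower (log2 change -0.87, adjusted p = 1e-05, edgeR). Whether the authors' counting used strand is not stated in the sources used here. Without strand, read pairs that lie wholly in shared bases match both genes. Per kb, *Setdb1* over *Trim28* was 0.137 ± 0.0142 in Control (NT) against 0.162 ± 0.00674 in KD-1 (SD, n = 3), without overlap.

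Of the 3 HUSH genes, 1 was called. *Tasor* (ENSMUSG00000040651, chromosome 14, 27150748 to 27205512, plus strand) had 45.9, 44.7 and 39.9 CPM in Control (NT) against 108, 119 and 118 in KD-1. The KD-1 libraries lay far above those of Control (NT), with no overlap. It rose 2.65-fold, from 43.5 ± 3.17 to 114.9 ± 5.97 CPM (SD, n = 3), a log2 change of 1.41 (SE 0.073, adjusted p = 9.4e-07, edgeR). This was the widest change among the 10 genes, against a median absolute log2 change of 0.49 over all genes tested. *Tasor* shares 2507 exon bases with *Ccdc66* on the opposite strand, a centriolar satellite gene whose log2 change was 0.36 (adjusted p = 0.0014, edgeR).

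*Mphosph8* (ENSMUSG00000079184, chromosome 14, 56905666 to 56935542, plus strand) had 115, 105 and 107 CPM in Control (NT) against 116, 119 and 127 in KD-1. The groups lay side by side without overlap, and the log2 change of 0.15 (SE 0.061) had an adjusted p of 0.062 in edgeR's test. It passed the threshold in 5 of 13 alternative settings, with a log2 change of at most 0.20. *Pphln1* (ENSMUSG00000036167, chromosome 15, 93296209 to 93389810, plus strand) had 75.4, 67.7 and 76.3 CPM in Control (NT) against 74.9, 80.2 and 80.2 in KD-1. The groups overlapped, with a log2 change of 0.10 (95% interval -0.049 to 0.25, adjusted p = 0.21, edgeR). Part of its sequence is also present in the processed pseudogene *Pphln1-ps1*, to which reads can be split.

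Ratios within a library do not depend on depth or on the scaling between libraries, and they set *Tasor* beside the other HUSH genes directly. Per kb of transcript, *Tasor* over *Mphosph8* was 0.190, 0.202 and 0.177 in the Control (NT) libraries of lowest, middle and highest depth and 0.444, 0.474 and 0.441 in KD-1, 2.39 times higher. *Tasor* over *Pphln1* went from 0.297 ± 0.0344 to 0.729 ± 0.00997 (SD, n = 3), 2.45 times higher. *Pphln1* over *Mphosph8* was 0.641 ± 0.0338 and 0.622 ± 0.0197, and the groups overlapped. Of 8 ratios tested, those with groups apart had an exact two-sided permutation p of 0.1 (0.133 after Benjamini-Hochberg adjustment), the smallest that 3 libraries against 3 can give, so no ratio can pass a threshold of 0.05 in this design. *Pphln1* over *Mphosph8* had an exact permutation p of 0.6.

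**Figure D2:**
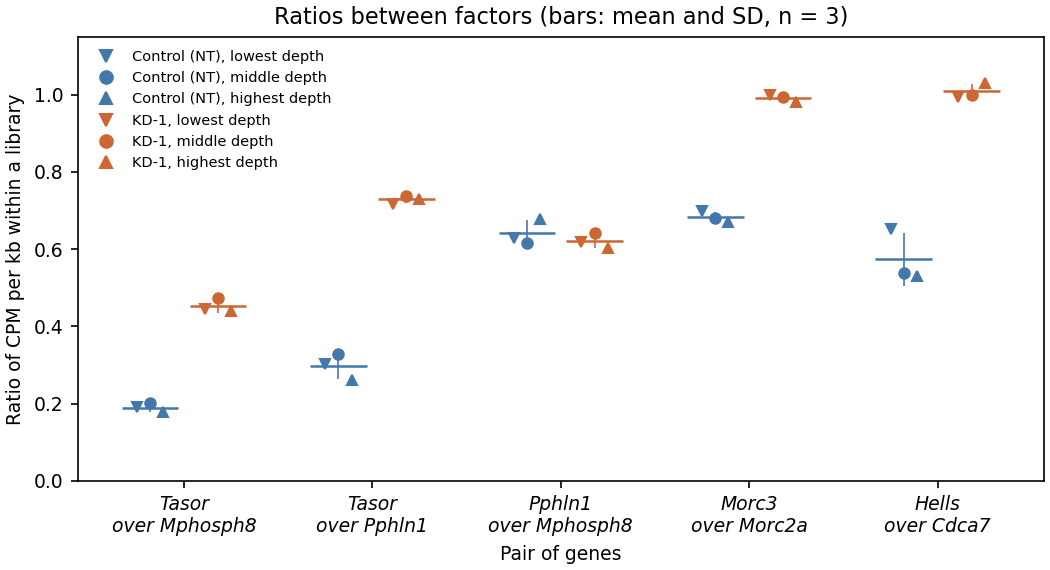
Ratios of CPM per kb of transcript between pairs of genes in the same library, with 1 point per library and bars for the mean and SD of 3 libraries. *Tasor* over *Mphosph8* and *Tasor* over *Pphln1* lie higher in all KD-1 libraries, and *Pphln1* over *Mphosph8* overlaps between the groups.

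Of the MORC pair, *Morc3* was called and *Morc2a* was not. *Morc2a*, which encodes the ATPase that works with HUSH (ENSMUSG00000034543, chromosome 11, 3598782 to 3641352, plus strand), had 117.5, 97.9 and 118 CPM in Control (NT) against 122, 124 and 125.5 in KD-1. The Control (NT) library of middle depth was the low one, the log2 change was 0.15 (SE 0.078) and the adjusted p was 0.11 in edgeR's test. *Morc3*, which encodes a SUMO-linked ATPase of PML nuclear bodies (ENSMUSG00000039456, chromosome 16, 93629009 to 93672979, plus strand), had 60.9, 49.4 and 58.8 CPM in Control (NT) against 90.55, 91.7 and 91.4 in KD-1. It rose 1.62-fold, from 56.35 ± 6.11 to 91.2 ± 0.599 CPM (SD, n = 3), a log2 change of 0.70 (95% interval 0.51 to 0.88, adjusted p = 9.6e-05, edgeR). The interval reached below the 1.5-fold threshold, which is 0.585 on the log2 scale. Per kb, *Morc3* over *Morc2a* was 0.683 ± 0.0143 in Control (NT) against 0.994 ± 0.0113 in KD-1 (SD, n = 3), without overlap (exact permutation p = 0.1, the smallest possible).

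*Hells* (ENSMUSG00000025001, chromosome 19, 38919359 to 38960047, plus strand) had 209, 189 and 186 CPM in Control (NT) against 337, 354 and 357 in KD-1. Every KD-1 library was above every Control (NT) library, and the rise was 1.80-fold, from 194.5 ± 12.9 to 349 ± 10.7 CPM (SD, n = 3), a log2 change of 0.85 (SE 0.064, adjusted p = 8.4e-06, edgeR). *Cdca7*, whose zinc finger protein partners HELLS in nucleosome remodeling, did not pass the threshold: it had 137.1 ± 6.82 CPM in Control (NT) against 139.5 ± 2.97 in KD-1 (SD, n = 3), a log2 change of 0.025 (95% interval -0.11 to 0.16, adjusted p = 0.72, edgeR). Per kb, *Hells* over *Cdca7* went from 0.574 ± 0.0683 to 1.01 ± 0.0164 (SD, n = 3). *Hells* is transcribed in dividing cells, and of 12 replication and mitosis genes, 2 were called higher and 0 lower, with a median log2 change of -0.045. By adjusted p alone, 4 of the 12 were higher and 5 lower. Their summed level was 4539 to 4821 CPM in Control (NT) and 5180 to 5226 in KD-1. Most of that difference lay in *Top2a*, at 831 ± 72.3 and 1332 ± 35.1 CPM (SD, n = 3). The part of these genes in the rise of *Hells* was not tested.

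*Atrx*, which encodes the chromatin remodeler that loads H3.3 (ENSMUSG00000031229, chromosome X, 104841131 to 104973014, minus strand), had 492.5, 325 and 430.2 CPM in Control (NT) against 519.9, 565 and 578 in KD-1. The Control (NT) libraries were spread widely, with a coefficient of variation of 20.4%, and the group means were 415.8 ± 84.8 and 554.5 ± 30.7 CPM (SD, n = 3). The log2 change of 0.42 (95% interval 0.11 to 0.72) passed the adjusted p (0.023, edgeR) but not the fold threshold. It was 0.27 with the middle-depth Control (NT) library left out, still past the threshold, and *Atrx* no longer passed without the Control (NT) library of highest depth (adjusted p = 0.060), the KD-1 library of middle depth (0.062) or the KD-1 library of highest depth (0.071, edgeR). *Daxx*, the H3.3 chaperone that partners ATRX (ENSMUSG00000002307, chromosome 17, 34128384 to 34134564, plus strand), had 33.9, 39.8 and 39.1 CPM in Control (NT) against 42.6, 38.0 and 40.2 in KD-1. The groups overlapped and the log2 change was 0.095 (SE 0.082, adjusted p = 0.33, edgeR). Per kb, *Atrx* over *Daxx* was 2.80 ± 0.793 in Control (NT) against 3.44 ± 0.354 in KD-1 (SD, n = 3), and the libraries of the groups overlapped (exact permutation p = 0.3, 0.343 after adjustment).

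**Figure D3:**
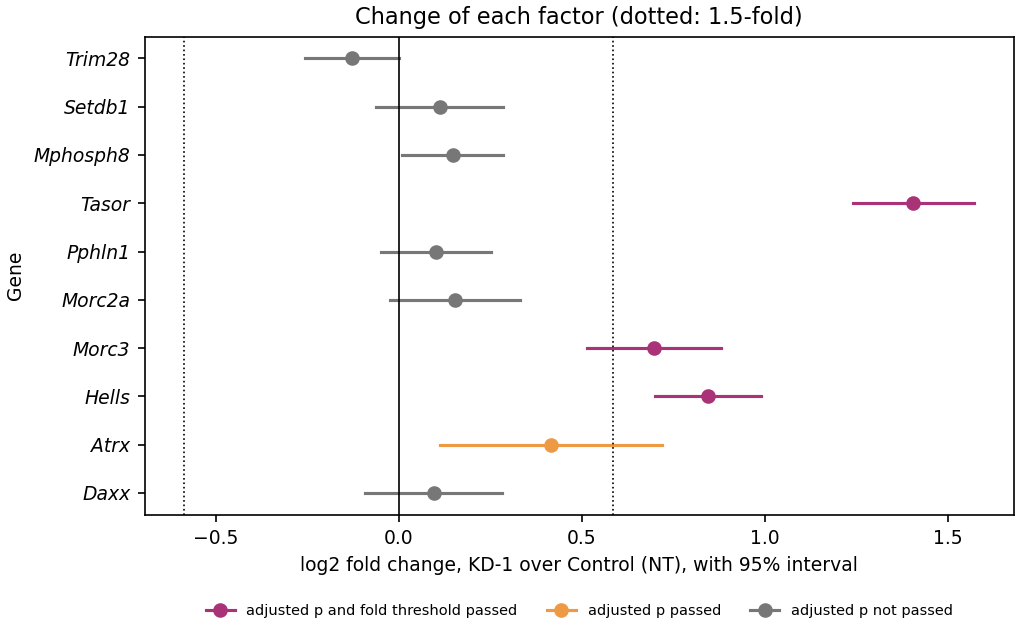
Log2 fold change of each silencing gene, KD-1 over Control (NT), with its 95% interval from edgeR's fit. *Tasor* lies farthest to the right at 1.41, *Hells* and *Morc3* follow beyond the dotted 1.5-fold line, *Atrx* passed the adjusted p alone, and the intervals of the other 6 genes lie within the dotted lines.

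Per kb of transcript, the order of levels changed where the called genes stood. In Control (NT), *Trim28* led at 178 ± 6.53 CPM per kb, above *Atrx* (40.1 ± 8.18), *Hells* (30.3 ± 2.01), then *Mphosph8*, *Setdb1*, *Morc2a*, *Pphln1*, *Daxx* and *Morc3*, and *Tasor* was last at 5.70 ± 0.415 (SD, n = 3). The neighbours *Atrx* and *Hells*, *Hells* and *Mphosph8*, *Morc2a* and *Pphln1*, and *Daxx* and *Morc3* overlapped between libraries and have no fixed order. *Tasor* did not overlap with the gene next to it in Control (NT). In KD-1, *Trim28* again led at 163 ± 5.31 CPM per kb, *Hells* (54.4 ± 1.66) and *Atrx* (53.5 ± 2.96) overlapped, and *Morc3* (21.7 ± 0.143) overlapped with *Morc2a* (21.9 ± 0.355). *Tasor* was still last at 15.1 ± 0.782 CPM per kb but overlapped with *Daxx* at 15.6 ± 0.892 (SD, n = 3). Lengths were those of the GENCODE canonical transcript, and the isoforms used in these cells were not analysed here.

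The genes that work with these factors were followed in 10 lists of 68 genes, of which 67 were tested. They moved in both directions: 10 were called higher and 5 lower, which is 22.4% of those tested beside 37.7% of all genes, and by adjusted p alone 25 rose, 21 fell and 21 did not pass, so that 68.7% passed beside 63.5% of all genes. Their median log2 change was 0.060. Among the partners of TRIM28, 1 of 6 KRAB zinc finger genes was called higher and 0 lower, namely *Zfp568*, a repressor of the placental transcript of *Igf2*, at 71.0 ± 7.86 CPM in Control (NT) against 136 ± 5.07 in KD-1 (SD, n = 3), a log2 change of 0.94 (adjusted p = 2.1e-05, edgeR). The paralogs of TRIM28 included *Trim33* with a log2 change of 0.49 (adjusted p = 0.0018) and *Trim24* with 0.060 (adjusted p = 0.37, edgeR), and neither was called.

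H3K9 methylation genes split. Of 9 methyltransferase and cofactor genes, 3 were called lower: *Wiz*, a zinc finger partner of the G9a and GLP enzymes (log2 change -0.83), *Suv39h1*, a methyltransferase of pericentric heterochromatin (-0.64), and *Ehmt2*, which encodes G9a (-0.60, adjusted p at most 0.00017 in all 3, edgeR). The 1 called higher was *Atf7ip2*, a relative of the SETDB1 partner *Atf7ip*, which rose from 14.5 ± 0.541 to 31.45 ± 2.07 CPM (SD, n = 3, log2 change 1.12, adjusted p = 5.2e-06, edgeR). *Atf7ip* itself had a log2 change of -0.10 (adjusted p = 0.24, edgeR), and -0.17 with the middle-depth Control (NT) library left out (adjusted p = 0.006, edgeR). All 3 genes for HP1 proteins, which bind methylated H3K9, passed the adjusted p and none the fold threshold: *Cbx1* at 0.41, *Cbx3* at 0.17 and *Cbx5* at 0.43 (adjusted p of 0.00013, 0.023 and 0.017, edgeR). *Cbx3* lost this without the highest-depth Control (NT), the middle-depth KD-1 or the highest-depth KD-1 library (adjusted p of 0.067 to 0.085, edgeR), and *Cbx5* without the KD-1 library of highest depth (adjusted p = 0.054, edgeR). The log2 change of *Cbx5* was 0.28 with the middle-depth Control (NT) library left out, still past the adjusted p. In the NuRD corepressor, 2 of 12 genes were called higher and 2 lower, *Chd3* (0.98) and *Mta3* (0.87) against *Mbd3* (-0.96) and *Mta1* (-0.61, adjusted p at most 0.0006 in all 4, edgeR), and its core ATPase gene *Chd4* had a log2 change of -0.063 (adjusted p = 0.45, edgeR). *Ehmt2* and *Mta1* lay close to the fold threshold, and without the highest-depth Control (NT), the middle-depth KD-1 or the highest-depth KD-1 library they were under it, with log2 changes of -0.57 to -0.58 and -0.52 to -0.58. With library size as the only scaling, *Ehmt2* (-0.54), *Mta1* (-0.55) and *Suv39h1* (-0.58) were under it.

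Among 6 relatives of the HUSH and MORC genes, 5 were tested and 2 were called higher. *Morc1*, which encodes a MORC protein that represses transposons in the male germline, rose from 32.1 ± 4.34 to 90.6 ± 3.00 CPM (SD, n = 3), a 2.82-fold rise (adjusted p = 2.9e-06, edgeR). *Resf1*, which encodes a regulator of SETDB1 at retroelements, rose from 73.6 ± 8.42 to 124 ± 2.81 CPM (SD, n = 3), a log2 change of 0.76 (adjusted p = 6.2e-05, edgeR). *Morc4* fell by 0.35 on the log2 scale (adjusted p = 0.0069, edgeR) without a call, and *Morc2b* was too low to test, with 0 counts in all Control (NT) libraries and 2 to 9 in those of KD-1. Of the 4 maintenance DNA methylation genes linked to HELLS, *Cdca7* among them, 0 were called, and *Uhrf1* (-0.28), *Cdca7l* (-0.37) and *Dnmt1* (-0.23) were lower by adjusted p alone (0.0028, 0.0019 and 0.021, edgeR). *Dnmt1* no longer passed when any library but the middle-depth Control (NT) one was left out (adjusted p of 0.052 to 0.086, edgeR), nor with library size as the only scaling (0.070).

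H3.3 and its chaperones gave 2 calls among 9 genes, both higher, *Pml*, the scaffold gene of the nuclear bodies where DAXX and MORC3 gather (log2 change 0.91), and *Ubn2*, of the HIRA complex (0.62, adjusted p at most 0.0022 in both, edgeR). *Ubn2* was at 0.49, under the fold threshold, with the middle-depth Control (NT) library left out. By adjusted p alone, 2 of the 9 genes were higher and 4 lower, with a median log2 change of -0.10. *Pml* was at 50.5 ± 0.643 CPM in Control (NT) against 94.75 ± 2.22 in KD-1 (SD, n = 3). In the SUMO pathway, whose modification TRIM28 uses to bind SETDB1, 1 of 10 genes was called higher and 0 lower, the SUMO ligase gene *Pias2* (0.87, adjusted p = 2.2e-06, edgeR). Of these 10 genes, 3 were higher and 4 lower by adjusted p alone. Of 6 CAF-1 and other cofactor genes, *Smarcad1*, a remodeler gene whose product binds TRIM28, was the 1 called higher (1.02, adjusted p = 8.6e-06, edgeR), from 106.8 ± 11.0 to 216 ± 4.84 CPM (SD, n = 3). Adjusted p alone was passed by 3 of the 6 as higher and by 2 as lower.

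**Figure D4:**
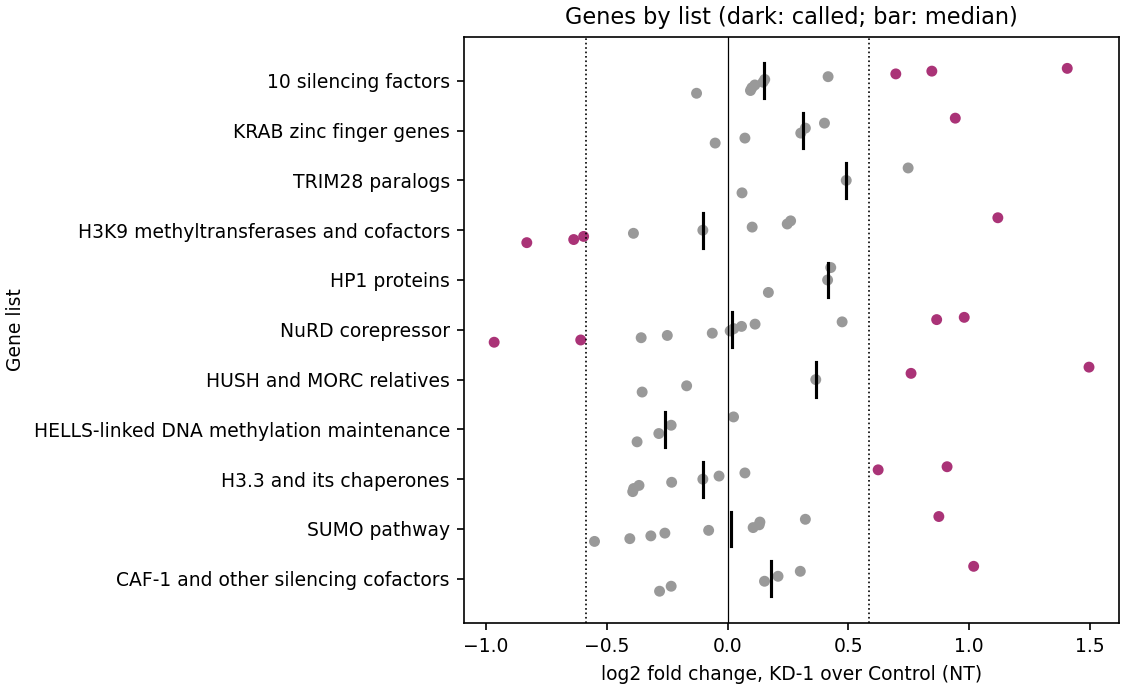
Log2 fold change (KD-1 over Control (NT)) of the 10 silencing genes and of the tested genes of 10 partner lists, with 1 point per gene, dark points for called genes, black bars for list medians and dotted lines at 1.5-fold. Called genes lie on both sides of 0 in the H3K9 and NuRD lists and to the right only in the others that have any.

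For comparison, 13 DNA methylation genes, *Dnmt1*, *Uhrf1* and *Mbd3* of the lists above among them, gave 3 calls higher and 5 lower, and 10 Polycomb PRC2 genes gave 4 higher and 1 lower, with medians of -0.23 and 0.19 on the log2 scale. The differences between these counts and those of the silencing genes were not tested.

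Among genes whose repression in ESCs is linked to these factors, the *Zscan4* genes mark a state of ESCs that resembles the 2-cell embryo, in which the endogenous retrovirus MERVL is transcribed. Copies *Zscan4a* to *Zscan4f* together had 4, 0 and 0 counts in the Control (NT) libraries of lowest, middle and highest depth, and 307, 317 and 568 counts in KD-1, or 7.32, 7.29 and 6.54 CPM. The KD-1 libraries were close to each other and far above Control (NT), where the 4 counts fell in 1 library. All 6 copies were called higher, but they passed the filter on low counts only through KD-1, so a call could only be higher. As the copies are nearly identical, the count of any 1 copy is uncertain and the 6 calls are not separate results. The other 8 genes of the 2-cell list were too low to test, with 0, 1 and 3 counts in all in Control (NT) against 18, 22 and 40 in KD-1.

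**Figure D5:**
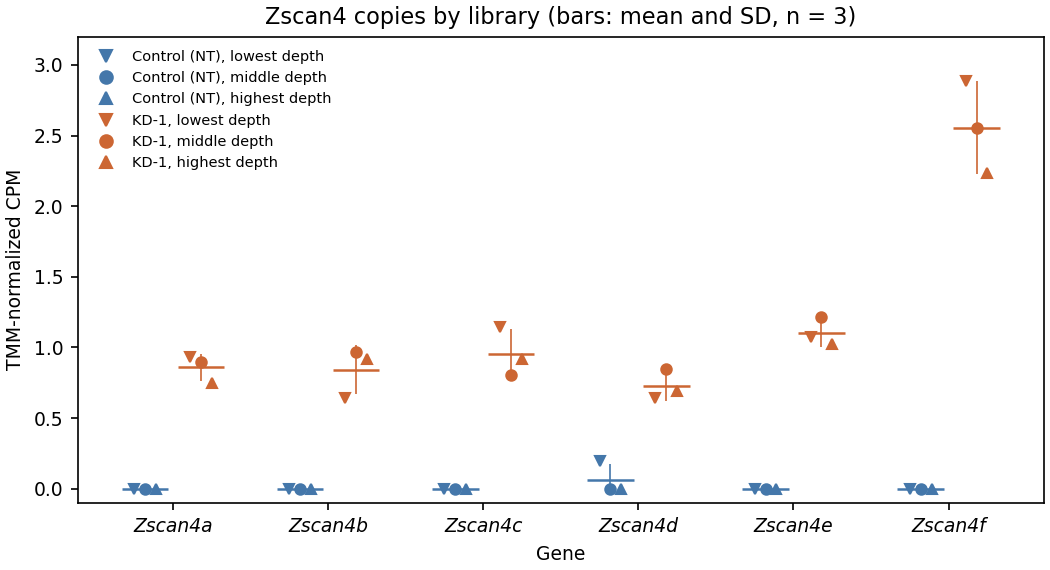
TMM-normalized CPM of *Zscan4a* to *Zscan4f*, with 1 point per library and bars for the mean and SD of 3 libraries. The 3 KD-1 libraries lie above 0 in every copy, and the only Control (NT) library above 0 is the one of lowest depth, in *Zscan4d*.

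Genes that descend from retroelements and now serve the host did not move as a block. Of 12 such genes, 9 were tested, 4 were called higher and 2 lower. *L1td1*, derived from a LINE element and known as an RNA-binding protein gene of pluripotent cells, rose from 98.3 ± 1.23 to 351 ± 16.8 CPM (SD, n = 3), a log2 change of 1.84 (adjusted p = 7.1e-08, edgeR). The gag-derived *Rtl1*, an imprinted placental gene, fell from 2.37 ± 0.637 to 0.0614 ± 0.0531 CPM (SD, n = 3, log2 change -5.07, adjusted p = 6.4e-05, edgeR), a level in KD-1 near that of 3 counts. *Rtl1* passed the filter on low counts only through Control (NT). The related *Rtl5* had a log2 change of -0.64 (adjusted p = 0.0034, edgeR). *Peg10*, another imprinted gene of this origin, had a log2 change of 0.71 (adjusted p = 2.1e-05), and *Rtl8b*, one of 3 similar copies among which reads may be divided, had 1.46 (adjusted p = 0.0027, edgeR). *Arc* had 2, 5 and 25 counts in the Control (NT) libraries of lowest, middle and highest depth. The KD-1 libraries, in the same order, held 35, 28 and 52. *Arc* passed the filter on low counts only through KD-1, so a call could only be higher. At 0.692 ± 0.125 CPM in KD-1 (SD, n = 3), it passed narrowly (adjusted p = 0.043, edgeR). It no longer passed when any library but the highest-depth Control (NT) one was left out (0.066 to 0.13). Its log2 change of 1.38 became 2.41 without that library.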

How the data were processed

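Total RNA of gastruloids was prepared with the Illumina TruSeq kit and sequenced as paired-end reads. The authors quantified reads with Salmon (version 1.1) on a Gencode annotation, of a species series and build not given in the sources used here, and deposited estimated counts per gene as whole numbers without normalization; strand use is not stated. Column names give the group of each library but not its replicate number. Identifiers were matched to GENCODE vM39 on GRCm39 (35222 of 35565), and 10 of 10 silencing genes and 176 of 176 list entries were found. edgeR (version 4.0.16, R 4.3.3) was run on all genes: filterByExpr (15110 kept), TMM, robust glmQLFit, glmQLFTest with a group term alone, and p-values adjusted by Benjamini-Hochberg. The alternatives were DESeq2 (version 1.42.0), limma-voom (limma version 3.58.1), other normalizations, filters and thresholds, and each library left out. Scripts were tested on simulated data. The silencing genes and the lists were chosen with earlier results of these data known. From each list, at most 3 called genes with the widest change and relatives of the silencing genes were named. *Chd4*, *Peg10*, *Rtl5*, *Arc*, *Uhrf1*, *Cdca7l*, *Dnmt1*, *Postn*, *Lum*, *Thy1*, *Cldn6*, *Meox1*, *Pax3*, *T*, *Top2a* and neighbouring genes were named after their values were seen. Library pairs of a group all differed beyond sampling noise (chi-square per degree of freedom of 4.76 or more).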

Additional observations from a re-analysis of the deposited data

How the results depend on the processing

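Under 13 alternatives (3 other normalizations, 2 other filters, DESeq2, limma-voom and each of 6 libraries left out), *Tasor* (log2 change 1.34 to 1.46), *Hells* (0.81 to 0.90) and *Morc3* (0.61 to 0.75) were called in 13 of 13. *Atrx* passed the adjusted p in 10 of 13, *Mphosph8* in 5, *Trim28* in 2 and *Morc2a* in 1, and *Setdb1*, *Pphln1* and *Daxx* in 0. The number of silencing genes called was 3 in each of these, 2 in a test against a 1.5-fold change (glmTreat) and 1 at an absolute log2 fold change over 1. The number past the adjusted p and lower was 0 to 1 with a library left out. The 5 partner genes called lower became 3 with DESeq2, 3 with RLE normalization and 2 with library size alone, and the cause was not tested. *Cdca7*, not past the threshold under any of them, ranged from -0.018 (without the Control (NT) library of lowest depth) to 0.059 with a library left out. No paired analysis was possible because the columns carry no replicate number that matches the sample labels. The shallowest library, with 20982249 counts, limits what can be said of genes near 0.143 CPM.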

Other observations

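Transcripts that share exon bases with the silencing genes, or copy them, had their own values. *Zcrb1*, a spliceosome gene that overlaps *Pphln1* by 22 exon bases head to head, fell from 35.1 ± 2.46 to 24.8 ± 0.813 CPM (SD, n = 3, log2 change -0.50, adjusted p = 0.00045, edgeR's quasi-likelihood test), while *Pphln1* did not pass the threshold. The pseudogene *Pphln1-ps1* was at 7.62 ± 0.555 CPM in Control (NT) against 9.66 ± 0.559 in KD-1 (SD, n = 3), a log2 change of 0.35 (adjusted p = 0.017, edgeR). *Chmp2a*, an ESCRT-III gene that shares 2923 exon bases with *Trim28*, had a log2 change of -0.025 (adjusted p = 0.81, edgeR), and *Cers2*, beside *Setdb1*, fell from 61.7 ± 3.08 to 33.85 ± 1.63 CPM (SD, n = 3). *Osbp2*, which shares 632 exon bases with *Morc2a*, was below 0.51 CPM in every library. *Hells*, *Morc3*, *Atrx*, *Mphosph8* and *Daxx* share no exon bases with another gene that has counts here. Some genes without counts here do share exon bases with silencing genes, on the opposite strand. They are *Gm16973* (992 bases with *Mphosph8*), *BC051226* (445 with *Daxx*), *Tug1* (892 with *Morc2a*), *Gm37500* (1078 with *Setdb1*) and *Gm34702* (413 with *Tasor*).

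The KD-1 libraries were more alike than the Control (NT) libraries. In 9 of the 10 silencing genes the coefficient of variation was larger in Control (NT), and over the 6802 genes with a mean between 20 and 700 CPM its median was 8.0% in Control (NT) against 2.95% in KD-1. The KD-1 library of lowest depth was the lowest of its group in 8 of the 10 genes.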
